A study of Rattus norvegicus with 4 samples.

Results

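Circular RNAs (circRNAs) whose host genes encode ubiquitin ligases, the enzymes and adaptors that work with them, and deubiquitinases were examined in the rat sciatic nerve after a crush injury. A circRNA is a transcript closed by a back-splice, and the reads that cross the closing junction are its count. Members were chosen by name: a circRNA was taken when it had 1 host gene whose symbol began with one of 19 family prefixes (among them Usp, Rnf, Trim, Fbx, Klhl, Herc and Ube) or was Itch or Ankib1. This gave 182 of 4942 circRNAs, from 81 of 2327 host genes. A name is not a function: Usp6nl, taken by its prefix, encodes a GTPase-activating protein of membrane traffic, and Ubap2l, a protein with a ubiquitin-associated domain, is known as an RNA-binding factor.

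All 4 libraries were of total RNA from the sciatic nerve of Sprague-Dawley rats in postnatal week 6, taken 24 h after surgery. In the crush group (2 libraries) a hemostatic forceps closed on 3 mm of nerve 2 times, for 15 s each, with 3 s between. The crushed piece was then cut out with 1 mm of nerve at both ends. In the sham group (2 libraries) the nerve was only exposed. The labels name no separate animals for the libraries of a group. The p-values therefore cover the spread among these 4 libraries and no more, and that spread may be technical. In bulk tissue, fewer cells of a type and less RNA per cell cannot be told apart.

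Ubiquitin is passed from an activating enzyme to a conjugating enzyme and then, with the help of a ligase, to a target protein. HECT ligases carry the ubiquitin themselves, RING ligases hold the conjugating enzyme beside the target, and cullin ligases choose targets through exchangeable adaptors with an F-box or a Kelch domain. Deubiquitinases take ubiquitin off again. In injured nerve this system takes part in the breakdown of axons cut off from their cell bodies and in the turnover of proteins in Schwann cells.

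Circular RNAs of these hosts took a larger share of junction reads after crush than after sham. They had 367 and 333 reads in crush replicates 1 and 2, of 8250 and 9027 in all, and 230 and 214 reads in sham replicates 1 and 2, of 9018 and 8726. As shares these were 4.45% (95% exact Clopper-Pearson interval 4.01% to 4.92%) and 3.69% (3.31% to 4.10%) after crush, against 2.55% (2.24% to 2.90%) and 2.45% (2.14% to 2.80%) after sham. Both crush libraries lay above both sham libraries, and the mean difference of 1.57 percentage points was larger than the SD within either group (0.537 and 0.0693, n = 2). The difference was smaller in SRPBM, the deposited signal that scales junction reads by 1 constant per library. There members had 26.6 and 19.9 after crush and 16.8 and 16.8 after sham. Crush over sham was 1.39 in SRPBM and 1.63 in the share. No p is given for this sum, because the hosts were chosen with earlier results of these data known. The intervals cover counting error only.

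The size of the difference depended on which circRNAs were counted. Among circRNAs listed in at least 2 of the 4 libraries, members took 3.81% and 3.05% of crush reads against 2.61% and 2.03% of sham reads, a mean difference of 1.11 percentage points, and the groups did not overlap. Klhl21, described below, had 22 and 51 reads after crush and 0 after sham. When it was left out as well, the shares were 3.43% and 2.46% against 2.61% and 2.03%, a mean difference of 0.63 percentage points. In SRPBM over all members, Klhl21 held 1.595 of 26.6 in crush replicate 1 and 3.05 of 19.9 in crush replicate 2. Without it, the SRPBM of crush replicate 2 lay near the 16.8 of both sham libraries. In the share without Klhl21, crush replicate 2 lay between the sham libraries, so that the groups overlapped.

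**Figure D1:**
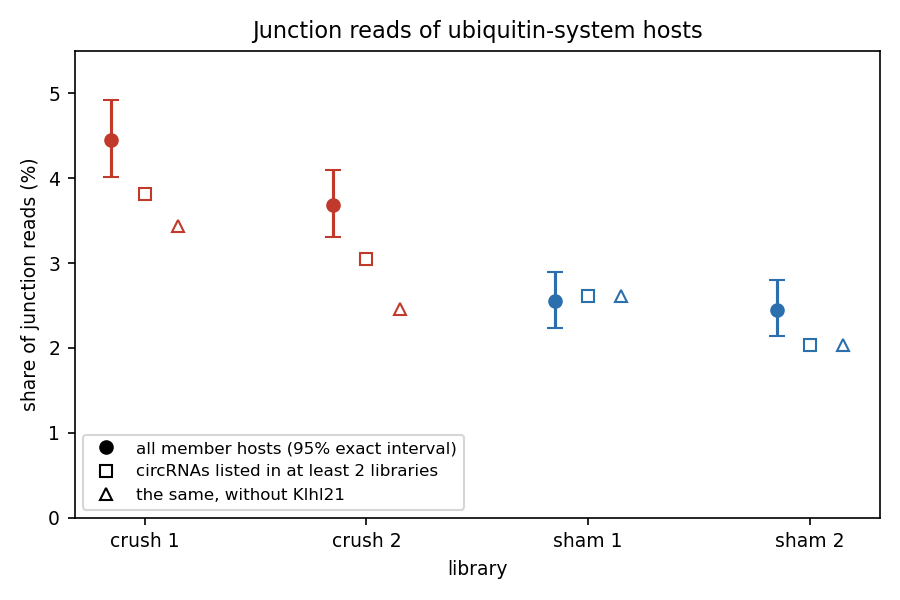
Share of back-splice junction reads (percent, y axis) that came from ubiquitin-system hosts in each of the 4 libraries (x axis). Filled circles with 95% exact intervals count all circRNAs, open squares those listed in at least 2 libraries and open triangles the same without Klhl21. The circles of the crush libraries (red) lie at 4.45% and 3.69% and those of the sham libraries (blue) at 2.55% and 2.45%, while the triangles of crush replicate 2 (2.46%) and sham replicate 1 (2.61%) cross.

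Summed reads of leukocyte and of skeletal muscle marker genes differed between the groups. Of 20 leukocyte marker genes, 10 hosted a circRNA, and their summed reads were 78 and 68 after crush and 0 and 2 after sham; Cd68, Adgre1, S100a8 and S100a9 were among the 10 listed at 0 in all libraries. Of 12 skeletal muscle markers, 5 hosted a circRNA (Dmd, Mlip, Myh1, Neb and Ryr1). Their sum was 76 and 84 crush reads and 207 and 235 sham reads, and Ttn and Ckm were listed at 0. Of 21 Schwann cell and myelin markers, 4 hosted a circRNA, namely Mbp, Pmp22, Cdh19 and Mpp6. Their summed reads were few (2 and 2 against 7 and 9). The others, Sox10, Mag and Prx among them, were at 0, so the labelled tissue could not be checked on circRNAs of those genes. The part of these cells in the results was not tested.

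The listed circRNAs were mostly rare. Of the 182, 129 (70.9%) were listed in 1 library and 9 (4.9%) in all 4, beside 72.4% and 6.1% among all 4207 circRNAs with 1 host. The caller lists 0 or at least 2 reads, and a 0 was common between replicates: it stood beside at least 5 reads in the other replicate in 9 of 31 member hosts after crush and in 6 of 20 after sham (29.0% and 30.0%, against 25.5% and 26.5% over all hosts). Exonic circRNAs numbered 147 (80.8%, against 88.7% over all circRNAs with 1 host), and the other 35 were intronic. The median genomic span, end minus start with introns included, was 8602 bases for exonic and 2707 bases for intronic members, against 8809 and 6270 over all. It ran from 290 bases in Herc1 to 132553 bases in Rnf13.

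Some member hosts were listed with several circRNAs. Of the 81 hosts, 42 gave 1 circRNA (51.9%, against 62.2% of all hosts) and 11 gave 5 or more (13.6%, against 5.76%). Herc1 gave 10, Klhl21 gave 8, Usp32 gave 7 and both Cul3 and Usp3 gave 6. An end was shared with another circRNA of the host by 86 of the 182 (47.3%), near the 42.2% over all. The 8 of Klhl21 are among these 86, and Klhl21 is among the 11 hosts. In both crush replicates but neither sham replicate 19 members were listed (10.4%, beside 4.37% over all circRNAs with 1 host), and 8 in the reverse pattern (4.40%, beside 3.59%). Of the 19, 5 were those of Klhl21 described below.

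Sorted by role, the groups of hosts differed in how the libraries were ordered. RING and RBR (RING-between-RING) ligases, with 21 hosts, took 1.02% and 0.92% of crush junction reads, against 0.943% and 0.791% of sham junction reads, so sham replicate 1 lay between the crush libraries. HECT ligases (11 hosts) took 0.63% and 0.476% against 0.432% and 0.458%. Deubiquitinases (14 hosts, without Usp6nl) took 0.582% and 0.643% against 0.388% and 0.458%, and F-box adaptors (12 hosts) 0.255% and 0.454% against 0.0998% and 0.195%. In these last 3 groups both crush libraries lay above both sham libraries in this share. For HECT ligases the margin was narrow and depended on the scale. In SRPBM they had 3.17 ± 0.85 after crush against 2.99 ± 0.22 after sham, a difference smaller than the crush SD. Kelch adaptors (3 hosts) took 0.315% and 0.72% against 0.189% and 0.195%, with all of the crush excess in Klhl21. Conjugating enzymes (7 hosts, 27 and 9 reads against 17 and 13) and cullins (4 hosts, 13 and 7 reads against 7 and 8) overlapped between groups.

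**Figure D2:**
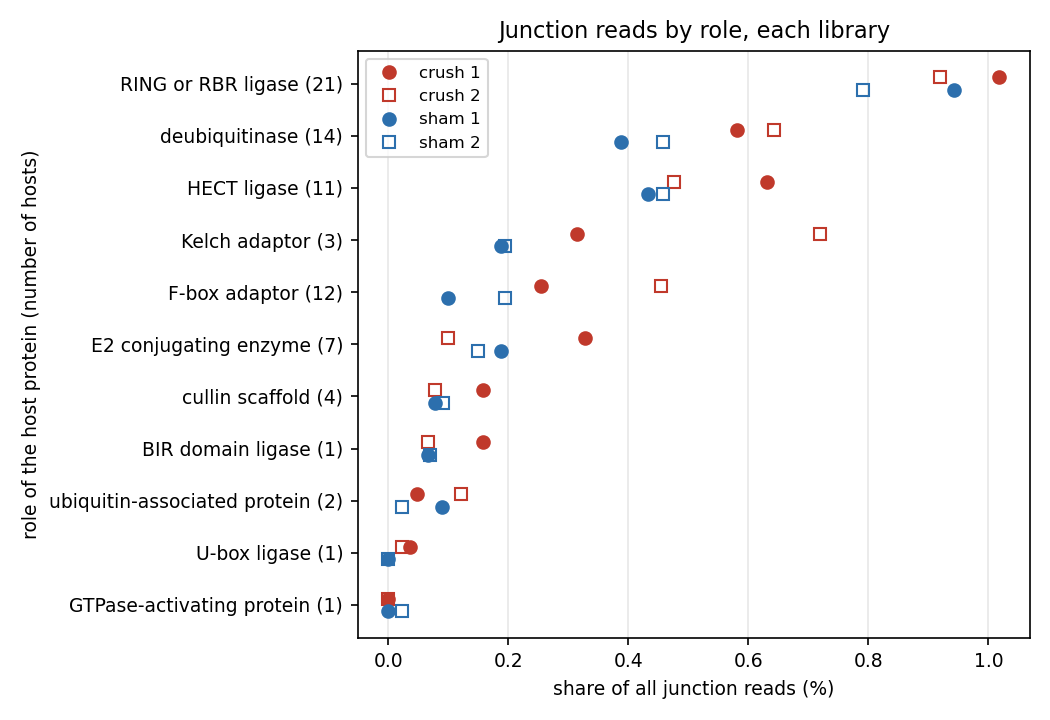
Share of all junction reads (percent, x axis) by the role of the host protein (y axis, number of hosts in brackets), with 1 symbol per library. Deubiquitinases, HECT ligases, F-box and Kelch adaptors have both crush libraries (red) right of both sham libraries (blue). The margin is narrowest for HECT ligases (0.476% against 0.458%). RING or RBR ligases, conjugating enzymes and cullins overlap.

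Host genes were tested on the junction reads summed over their circRNAs, in a fit of all hosts with at least 5 reads in at least 2 libraries (edgeR quasi-likelihood test). Of the 81 member hosts 22 entered the test, holding 67.9% of member reads, and 59 did not: 36 of these were listed in 1 library and 42 had at most 5 reads in all. Of the 22, 1 rose, Klhl21, and 0 fell at an adjusted p under 0.05. Over all 434 hosts tested 2.3% passed (1.84% rose and 0.461% fell), so 1 of 22 is near the background. Without a read filter 2 of the 81 passed, Klhl21 among them, beside 1.68% of all 2327 hosts. An unadjusted p under 0.05 was found for 5 of the 22, beside 25.6% of all hosts tested. The fitted change was above 0 for 15 and below 0 for 7, beside 53.5% above 0 over all hosts tested, with a median log2 change of 0.77 against 0.11 over all hosts tested. A host that passes the read filter through the group where it is high has to differ, so these counts are a description.

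**Figure D3:**
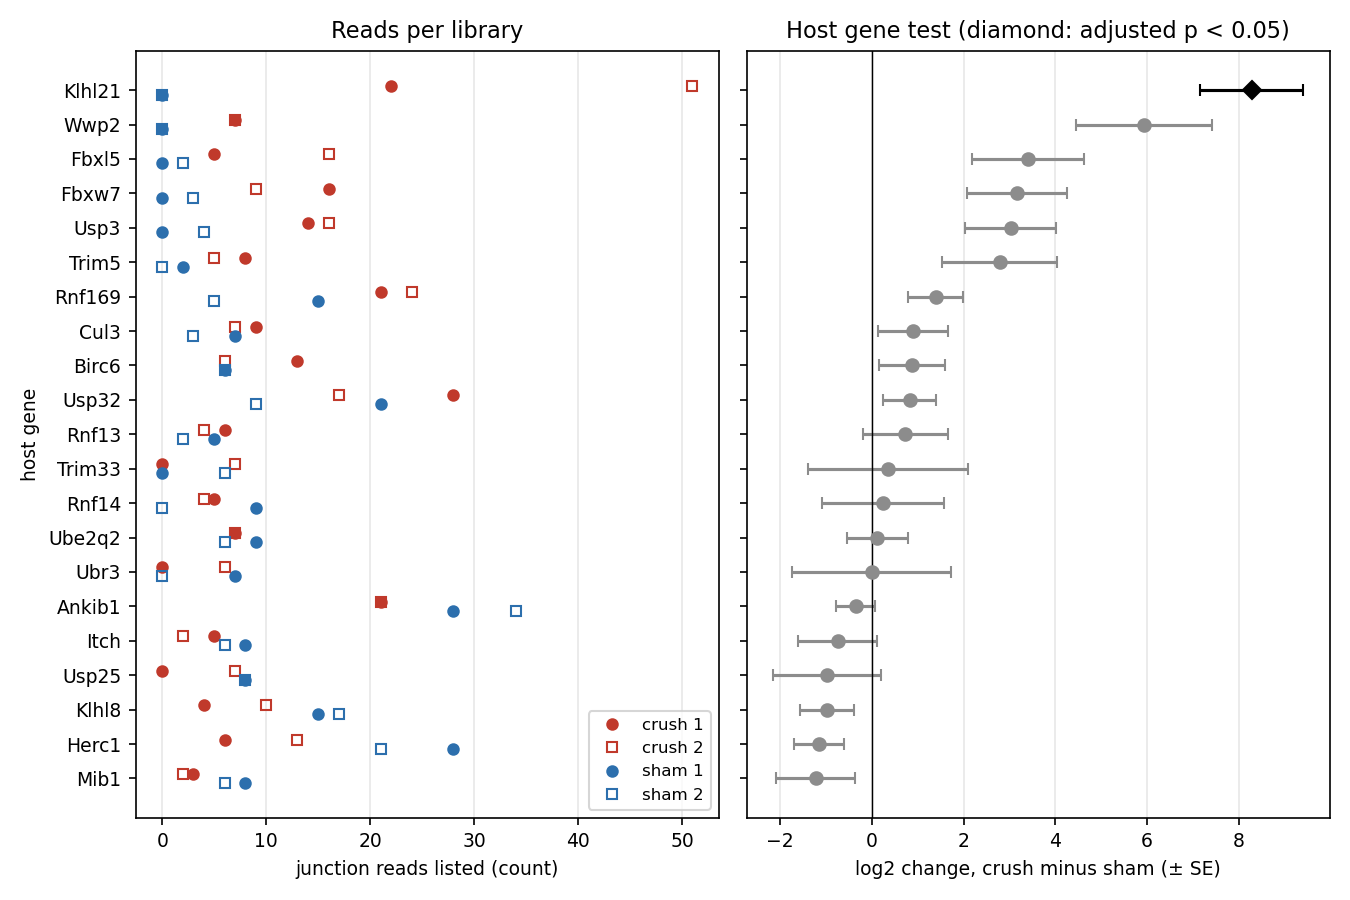
Left, junction reads (count, x axis) of tested member hosts (y axis) in each of the 4 libraries. Right, the log2 change of crush minus sham with its standard error from the edgeR fit of all hosts. Klhl21, with 22 and 51 reads after crush and 0 after sham, is the diamond past the threshold, and Mib1, Herc1, Klhl8 and Usp25 lie lowest with their crush reads below both sham libraries.

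Klhl21 encodes a Kelch adaptor that brings targets to the cullin Cul3 during cell division. Its circRNAs had 22 and 51 crush reads and 0 and 0 sham reads, or 2.32 ± 1.03 against 0 in SRPBM (SD, n = 2), the deposited signal that scales junction reads by 1 constant per library. With 3 reads put in for each sham library it was 10.2-fold higher after crush (adjusted p = 0.0445, edgeR). This fold is not a lower bound, since each of its 8 circRNAs listed at 0 can hide reads. The adjusted p ran from 3.01e-09 to 0.392 over 10 other settings and passed in 7 of them. It was 0.0719 when the scaling used all junction reads and 0.164 when hosts with 2 reads in 2 libraries entered the test. Without either crush library the host had too few listed values to be tested.

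The 8 circRNAs of Klhl21 were all intronic and lay almost on top of each other on chromosome 5. All ended at 169185563, and their starts ran from 169183931 to 169183949 (Rnor_6.0), a window of 18 bases in steps of 2 or 4 bases, so every start was an even number of bases from the next. Their spans were 1614 to 1632 bases. Crush replicate 1 listed 5 of them and crush replicate 2 all 8. The most abundant, starting at 169183945, had 9 and 13 reads, and the next, starting at 169183941, had 6 and 12. Neither passed the circRNA test alone (adjusted p = 0.0550 and 0.0652, edgeR). In the whole series 18 hosts had circRNAs with 1 common end and other ends within 20 bases of each other, and in the 17 hosts other than Klhl21 no such group held more than 2 circRNAs.

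The strand listed for all 8 was the minus strand, whereas the RefSeq table of the assembly GRCr8 places Klhl21 on the plus strand. The 4 nearest hosts on either side that could be compared (Rere, Camta1, Acot7 and Gnb1) had the same strand in the files and in that table. Opposite strands were found for 11 of 28 intronic members (39.3%, 8 of the 11 from Klhl21) and for 3 of 123 exonic members (2.44%), against 18.4% of intronic and 4.55% of exonic circRNAs over all hosts compared. The labels do not say whether the library kit keeps strand. Which transcript gave the reads credited to Klhl21 was not tested.

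**Figure D4:**
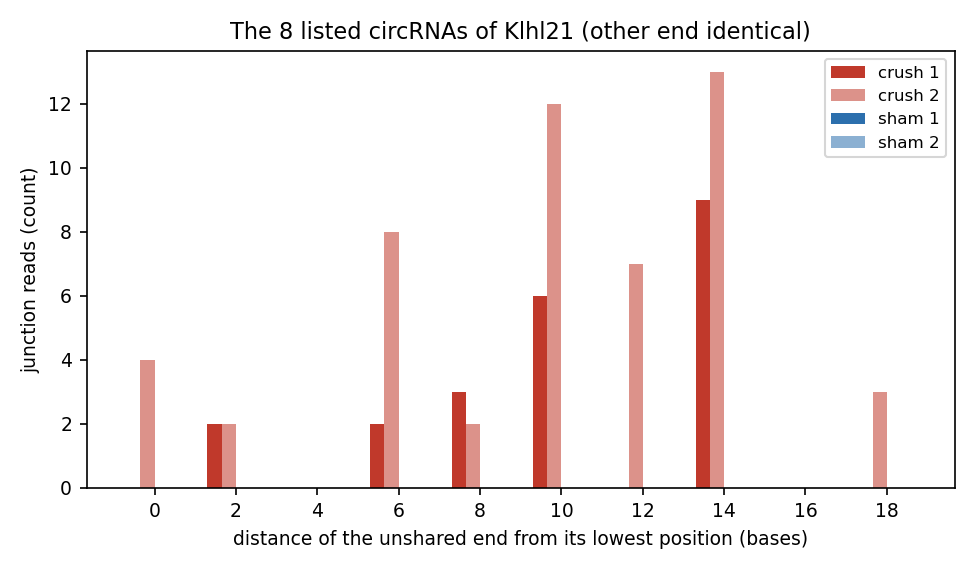
Junction reads (count, y axis) of the 8 circRNAs of Klhl21 by the distance in bases of their unshared end from its lowest position (x axis), with 1 bar per library. All starts fall within 18 bases at even distances, and the sham libraries (blue) have no reads at any of them.

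Among the other Kelch adaptors and the cullins only Klhl8 and Cul3 had enough reads to be tested, and neither passed. Klhl8, a further adaptor gene of this kind, had 1 exonic circRNA (chromosome 14, 7186515 to 7190518) with 4 and 10 crush reads and 15 and 17 sham reads. The groups did not overlap, and the log2 change was -0.98 ± 0.60 (SE; adjusted p = 0.347, edgeR). Klhl2, which directs WNK kinases to degradation, had 0 and 4 reads against 2 and 0. Cul3, the scaffold that binds Kelch adaptors, had 9 and 7 reads against 7 and 3 over 6 circRNAs, 5 of them intronic, with a log2 change of 0.89 ± 0.76 (adjusted p = 0.506). Cul4a was listed in crush replicate 1 alone (4 reads), and Cul1 and Cul5 in sham replicate 2 alone (2 and 3 reads).

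F-box adaptors were led by Fbxw7 and Fbxl5. Fbxw7, which brings cyclin E, Myc, Notch and Jun to the SCF ligase and is also known as a circRNA host in human cells, had 1 exonic circRNA of 587 bases on chromosome 2, 184309074 to 184309661. It had 16 and 9 crush reads and 0 and 3 sham reads, or 0.849 ± 0.440 against 0.118 ± 0.167 SRPBM. Both crush values lay above both sham values. The log2 change of the host was 3.16 ± 1.09 (adjusted p = 0.132, edgeR). The files list this circRNA on the minus strand and the RefSeq table places Fbxw7 on the plus strand, while its 4 nearest comparable hosts had the same strand in both.

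Fbxl5, the adaptor that senses iron and controls the iron regulatory protein IRP, had 5 and 16 reads against 0 and 2 over 4 exonic circRNAs that all started at 71861197 on chromosome 14. Its log2 change was 3.41 ± 1.23 (adjusted p = 0.143). Without sham replicate 2 both hosts passed (adjusted p = 0.0135 for Fbxw7 and 0.0151 for Fbxl5), in a fit where 21.2% of all hosts tested rose. Over the other settings the adjusted p reached 0.443 and 0.480. The other 10 F-box hosts had at most 5 reads in any library, and Fbxl17 (3 and 4 reads) and Fbxl4 (2 and 2) were listed in both sham libraries and in no crush library.

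HECT ligases split by direction. Wwp2, a relative of Nedd4, had 7 and 7 crush reads and 0 and 0 sham reads over 4 exonic circRNAs, 3 of which started at 39543248 on chromosome 19. With 3 reads put in for each sham library it was 2.04-fold higher, again not a lower bound, and it did not pass (adjusted p = 0.0836, edgeR). Settings that kept all 4 libraries gave 0.0798 to 0.508. Herc1, a giant ligase that also carries domains of guanine nucleotide exchange factors, had 6 and 13 crush reads and 28 and 21 sham reads, or 0.606 ± 0.242 against 1.85 ± 0.27 SRPBM. The groups did not overlap, and the log2 change was -1.15 ± 0.55 (adjusted p = 0.238). Its most abundant circRNA, exonic, at chromosome 8, 72138878 to 72148728, had 6, 8, 18 and 13 reads in crush 1, crush 2, sham 1 and sham 2, and none of the other 9 had more than 3 reads in a library.

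Itch, a ligase of immune signalling, had 5 and 2 crush reads and 8 and 6 sham reads (log2 change -0.75 ± 0.86, adjusted p = 0.641). None of its 5 circRNAs was listed in both groups, which was the common case. Over all 4207 circRNAs with 1 host, 1817 were listed after crush alone and 1565 after sham alone. The Itch circRNA from 150692740 on chromosome 3 had 3 and 2 reads after crush and 0 after sham. The one from 150686708, which closes at the same end, had 0 after crush and 5 and 2 after sham. Nedd4, the founding member of the family, had 7 and 4 against 0 and 4, and Nedd4l, which removes sodium channels from the membrane, 14 and 2 against 0 and 2. Herc6 (2 and 2 reads after crush), Huwe1 (0 and 4), Smurf2 (2 and 0) and Herc4 (0 and 2) had no sham reads, and Ube3c had 2 and 0 against 0 and 2.

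Among RING and RBR ligases, Ankib1 had the most reads of all member hosts. It encodes a RING-between-RING ligase of the ariadne family with ankyrin repeats, and had 21 and 21 crush reads and 28 and 34 sham reads, or 1.39 ± 0.19 against 2.36 ± 0.45 SRPBM. The log2 change was -0.35 ± 0.42 (adjusted p = 0.656, edgeR). Its 5 circRNAs did not all follow the host. The main one (chromosome 4, 27509136 to 27524886, exonic) had 16, 17, 17 and 23 reads in crush 1, crush 2, sham 1 and sham 2, a log2 change of -0.07 ± 0.44. One with the same start and a farther end, 27537918, had 0 and 0 crush reads and 5 and 6 sham reads and fell, at least 2.11-fold (adjusted p = 0.0454 over all circRNAs).

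Usp32, a membrane-bound deubiquitinase of endosomes, showed a similar contrast in the other direction. The host had 28 and 17 crush reads and 21 and 9 sham reads, which overlap (log2 change 0.82 ± 0.59, adjusted p = 0.412, edgeR). Its main circRNA (chromosome 10, 72369079 to 72371838, exonic) had 18, 5, 18 and 9 reads in crush 1, crush 2, sham 1 and sham 2, a log2 change of 0.01 ± 0.72. A longer one that closes at the same end, 72365735 to 72371838, had 6 and 8 reads after crush and 0 after sham, and rose, at least 2.01-fold (adjusted p = 0.0490 over all circRNAs). It made up 21.4% and 47.1% of the junction reads of Usp32 after crush.

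Both circRNAs met the read filter only through the group where they were high, as Klhl21 did in the host test, so a difference was built into their being tested. These were the 2 of 16 tested member circRNAs that passed, 1 higher and 1 lower, beside 11.9% past it in all, 7.48% higher and 4.44% lower among all 428 circRNAs tested. Both calls depended on the settings. With circRNAs of 2 reads in 2 libraries also tested, the adjusted p was 0.135 for both, without a filter it was 0.0994 for Usp32 and 0.635 for Ankib1, and over 8 settings each it ran from 0.0284 to 0.578 and from 0.0207 to 0.804. Without crush replicate 1 or 2 the adjusted p of the Ankib1 circRNA was 0.0726 or 0.0624, and without sham replicate 2 that of the Usp32 circRNA was 0.0789. Whether the circRNAs of 1 host differed from each other in their response was not tested.

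**Figure D5:**
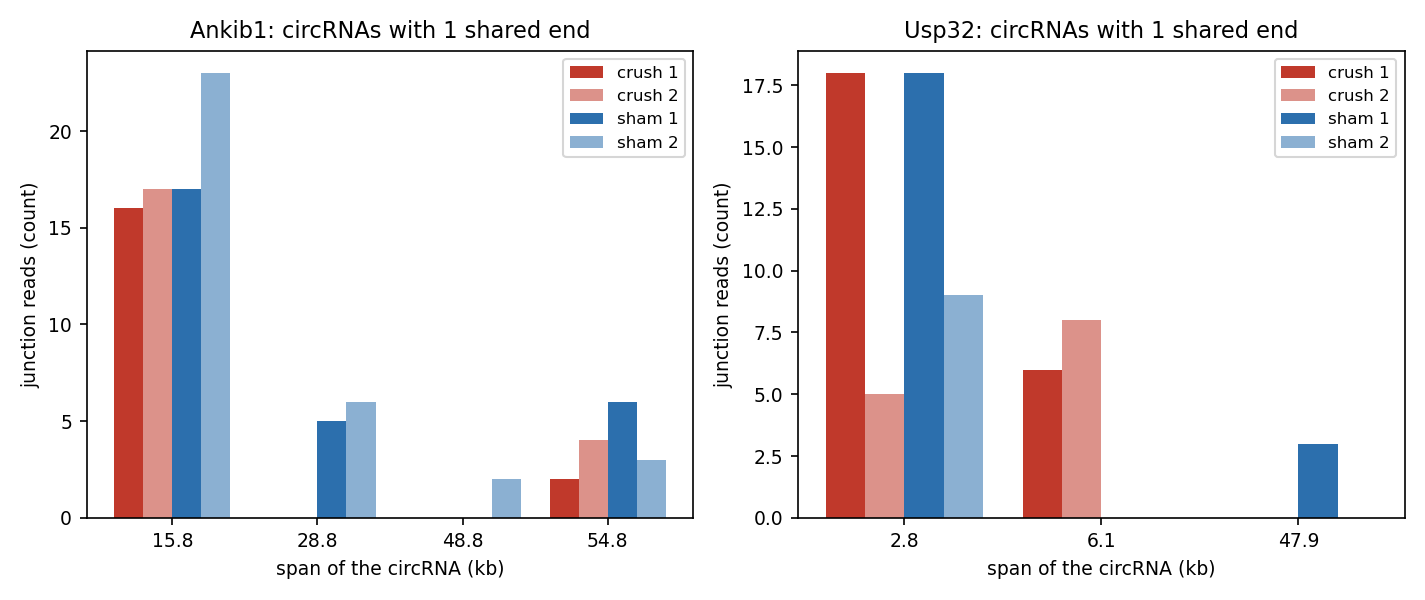
Junction reads (count, y axis) of circRNAs of Ankib1 (left) and Usp32 (right) that share 1 end with the main circRNA of the host, ordered by genomic span in kb (x axis), with 1 bar per library. In Ankib1 the second circRNA has 5 and 6 sham reads and no crush reads, and in Usp32 the second has 6 and 8 crush reads and no sham reads, while the main circRNAs at the left of each panel have reads in all 4 libraries.

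The promoter sequences of the 3 hosts with a result past the threshold are shown as context for the results above. They are the 250 bases before the RefSeq gene start in GRCr8, a different build from that of the circRNA coordinates, for Klhl21 at chr5:167797371-167797620 (plus strand), Usp32 at chr10:70502040-70502289 (minus strand) and Ankib1 at chr4:31288143-31288392 (plus strand). Each is written 5′ to 3′ on the strand of the gene, and capitals mark a match to one of the motifs searched on both strands.
Klhl21: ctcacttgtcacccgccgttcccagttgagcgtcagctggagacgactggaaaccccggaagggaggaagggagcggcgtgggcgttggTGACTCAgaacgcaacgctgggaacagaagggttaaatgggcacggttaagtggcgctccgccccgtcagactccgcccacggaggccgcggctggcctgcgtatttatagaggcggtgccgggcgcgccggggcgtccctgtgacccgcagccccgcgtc
Usp32: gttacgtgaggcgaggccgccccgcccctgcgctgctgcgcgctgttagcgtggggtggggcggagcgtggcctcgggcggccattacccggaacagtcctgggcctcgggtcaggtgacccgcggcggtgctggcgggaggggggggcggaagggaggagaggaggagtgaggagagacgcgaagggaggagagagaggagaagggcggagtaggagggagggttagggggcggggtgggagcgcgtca
Ankib1: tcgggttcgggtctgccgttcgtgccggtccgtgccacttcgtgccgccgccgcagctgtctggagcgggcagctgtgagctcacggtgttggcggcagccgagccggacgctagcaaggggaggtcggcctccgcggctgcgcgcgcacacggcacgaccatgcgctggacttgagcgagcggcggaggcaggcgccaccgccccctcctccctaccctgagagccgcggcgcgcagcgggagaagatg
The motifs were the AP-1 element TGANTCA, the CRE TGACGTCA, the E-box CACGTG and the CCAAT box. The 1 match was an AP-1 element of Klhl21 that begins 161 bases before the start. Such a match stood in 4 of 68 member promoters found in the table (5.88%), in 3.35% of 1790 promoters of all hosts and in 6.34% of all 33469 promoters. The E-box stood in 4 of the 68 (5.88%, against 8.83% of host promoters), the CCAAT box in 13 (19.1%, against 33.0%) and the CRE in 0 (against 2.51%). The median GC content was 66.8% over the 68 and 63.2% over the host promoters. These are descriptions of letters, not of binding. The circRNAs of Klhl21 were listed on the strand opposite to the gene, and whether their reads came from the promoter shown was not tested.

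None of the remaining RING ligases that were tested passed either test. Of the 21 RING and RBR hosts only 7, Ankib1 among them, entered the host gene test. Rnf169, which binds ubiquitin at DNA breaks, had 21 and 24 crush reads and 15 and 5 sham reads, nearly all from 1 exonic circRNA at chromosome 1, 164931730 to 164947123. Both crush values lay above both sham values, and the log2 change was 1.39 ± 0.60 (adjusted p = 0.207, edgeR). Trim5, a restriction factor gene with close relatives that leave the host uncertain, had 8 and 5 against 2 and 0 from a circRNA of 475 bases. Mib1, which ubiquitinates Notch ligands, had 3 and 2 crush reads and 8 and 6 sham reads (log2 change -1.22 ± 0.86, adjusted p = 0.407). None of its 5 circRNAs was listed in both groups, again the common case over all circRNAs.

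Rnf13, an endosomal ligase with a transmembrane domain, had 6 and 4 reads against 5 and 2. Rnf14, a ligase that also binds the androgen receptor, had 5 and 4 against 9 and 0. Its 4 reads in crush replicate 2 came from 1 intronic circRNA listed on the strand opposite to that of the gene in GRCr8. Trim33, a regulator of Smad signalling, had 0 and 7 against 0 and 6. The values of these hosts overlapped between groups. Rnf19b (2 and 2 reads) was listed in both crush libraries alone. Rnf219, named Obi1 in RefSeq, had 2 and 0 reads against 4 and 5. Rnf216, which had 2 circRNAs, was listed in sham replicate 1 alone, with 8 reads.

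Deubiquitinases other than Usp32 were led by Usp3, which removes ubiquitin from histones. Usp3 had 14 and 16 crush reads and 0 and 4 sham reads over 6 circRNAs on chromosome 8, or 0.986 ± 0.041 against 0.157 ± 0.223 SRPBM. Both crush values lay above both sham values, and the log2 change was 3.02 ± 0.98 (adjusted p = 0.110, edgeR). It passed where at least 10 reads in 2 libraries were required and where sham replicate 2 was left out (adjusted p from 0.00663 to 0.452 over 11 settings). Usp25, a deubiquitinase of inflammatory signalling, had 0 and 7 reads against 8 and 8 (log2 change -0.98 ± 1.17). Usp9x, an X-linked enzyme with a Y-linked relative, had 4 and 5 against 0 and 2. Usp28 had 2 and 3 reads after crush and 0 after sham, and Usp37, with 4 circRNAs, had 8 reads in sham replicate 2 alone.

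Conjugating enzymes and the smaller families showed no call, but of the hosts named here only Ube2q2, Birc6 and Ubr3 were tested. Ube2q2 had 7 and 7 reads against 9 and 6 (log2 change 0.12 ± 0.66, adjusted p = 0.948, edgeR), which overlap. Ube2h had 10 reads in crush replicate 1 and 0 elsewhere, and Ube2d2, nearly identical to other Ube2d genes, had 8 and 0 against 4 and 2. Ube2g1 was listed in both sham libraries (4 and 3 reads) and in no crush library. Birc6, a giant enzyme that both conjugates and ligates ubiquitin and holds back cell death, had 13 and 6 against 6 and 6 (log2 change 0.88 ± 0.71). Ubr3 had 0 and 6 against 7 and 0, Ubap2l 4 and 11 against 3 and 2, and the U-box ligase gene Ube4b, whose product binds the segregase Vcp, 3 and 2 against 0 and 0.

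Counted over all 81 member hosts, 14 had both crush libraries above both sham libraries in reads (17.3%, beside 11.6% of all 2327 hosts) and 11 had both below (13.6%, beside 11.0%). In both crush replicates but neither sham replicate 6 hosts were listed (7.41%, beside 6.27%), namely Klhl21, Wwp2, Ube4b, Usp28, Herc6 and Rnf19b. The reverse pattern held for 4 (4.94%, beside 4.94%), among them Fbxl17, Ube2g1 and Fbxl4. The 59 hosts below the read filter had 160 and 85 crush reads and 51 and 71 sham reads.

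Genes of the ubiquitin system that the name rule leaves out were counted from a list of 217 symbols, of which 55 hosted a circRNA. Their summed reads were 236 and 308 after crush and 422 and 305 after sham. As shares of the 8250 and 9027 crush and the 9018 and 8726 sham junction reads, both crush libraries lay below both sham libraries. This order is the reverse of that of the members. The margin was narrow between crush replicate 2 (308 of 9027) and sham replicate 2 (305 of 8726). Without the ligase gene Ttc3 the reads were 175 and 229 against 192 and 119, and the shares overlapped between groups. Of 16 tested, 0 rose and 1 fell, Ttc3 (61 and 79 reads against 230 and 186, log2 change -1.36 ± 0.24, adjusted p = 0.0490, edgeR), and 8 lay above and 8 below 0. Rfwd2, now named Cop1, the ligase of Jun and other transcription factors, had 30 and 29 reads against 6 and 8 (log2 change 2.26 ± 0.50, adjusted p = 0.0630). Tnfaip3, the ubiquitin-editing brake on NF-kB, had 5 and 6 reads after crush and 0 after sham (adjusted p = 0.0836). In the other direction Ubac2 (7 and 8 reads) and Hace1 (5 and 5) had sham reads alone, each with the same adjusted p of 0.0836. Dcun1d4 had 9 and 11 reads against 37 and 14, Ranbp9 13 and 25 against 14 and 7, Arih1 17 and 16 against 14 and 6, and Trip12 15 and 14 against 16 and 6, none past the threshold.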

How the data were processed

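Total RNA of 4 nerve samples (2 crush, 2 sham) was sequenced as paired-end libraries, per the labels' protocols. CASAVA 1.8, BWA, edgeR and the build Rnor_6.0 appear in the submitters' processing notes without their roles; no caller of circRNAs is named there. The files of the authors hold, per the file headers, raw back-splice junction read counts per circRNA and SRPBM. This deposited signal was the count times 1 constant per library (0.0725 and 0.0598 per read after crush, 0.0729 and 0.0786 after sham; largest relative deviation 5.02e-09). Library depth was 8250 to 9027 junction reads, so most members rest on under 10 reads.

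The 4207 circRNAs with 1 host were summed per host, and the 735 with no host or several were left out of host sums. Counts were tested with edgeR 4.0.16 (R 4.3.3), two-sided, by the quasi-likelihood test with TMM scaling over the features tested, Benjamini-Hochberg adjustment over all of them and a threshold of 0.05. Features needed 5 reads in 2 libraries. SRPBM is mean ± SD (n = 2), log2 changes are crush minus sham ± SE of the fit, and lower bounds use 3 reads in each library at 0 and are on the SRPBM scale. DESeq2 1.42.0, other scalings and filters, exonic circRNAs only, a replicate block and each library left out were alternatives. In a fit without 1 library, the lone sample of its group is assumed to vary like the other group. The script was tested on simulated data. Of 81 host symbols, 78 matched RefSeq's GRCr8 table and 3 matched through a synonym. Named are member hosts tested, member circRNAs past the threshold, hosts listed in 1 group, those with most circRNAs and further small hosts chosen after their values were seen. Members and lists were chosen with earlier results of these data known. Sequences across the back-splice were not used here. Results on some hosts are not reported here.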

Additional observations from a re-analysis of the deposited data

How the results depend on the processing

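The mean share of junction reads was higher after crush than after sham under every setting run. The difference, 1.57 percentage points, was 1.03 with exonic circRNAs only, 1.11 with circRNAs listed in at least 2 libraries, 2.26 with at least 5 reads in a library, 0.63 with circRNAs listed in at least 2 libraries and without Klhl21 (chosen after seeing the data; the groups then overlapped), and 1.19 to 1.95 when 1 library was left out. The count of member hosts past the threshold, 1, was 0 with 2 reads in 2 libraries, 2 with 10 reads in 2 libraries (Klhl21 and Usp3), 2 without a filter, 0 with exonic circRNAs only and 0 with TMM on all junction reads, an alternative added after seeing the data; it ran from 0 to 5 when 1 library was left out, where 5 were past it without sham replicate 2 and 0 without crush replicate 1 or 2. The count of member circRNAs past it, 2, was 0 with 2 reads and 0 with 10 reads in 2 libraries, 4 without a filter, and 0 to 5 when 1 library was left out (0 without either crush library, 5 without sham replicate 1 and 3 without sham replicate 2); DESeq2 called 2, both of Klhl21, in place of those of Usp32 and Ankib1.

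The libraries share only a replicate number (correlation of same-numbered deviations -0.056 over hosts and -0.111 over circRNAs). With the replicate block 1 member host and 0 member circRNAs passed, and with the numbers crossed, added after seeing the data, 0 and 0.

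Of 263 refits of single members, 231 kept direction and side of the threshold, 14 lost it and 5 gained it. Most of these refits were of members that did not pass in the main fit. All 14 losses were of the results that did pass there. Klhl21 stayed past the threshold in 7 of 10 refits, the Usp32 circRNA in 3 of 8 and the Ankib1 circRNA in 2 of 8. The 13 reversals were all of changes that did not pass: Ube2q2 (-0.29 with SRPBM totals, -0.060 with 2 reads in 2 libraries, -0.060 without a filter), Trim33 (-0.10 with SRPBM totals), Rnf14 (-0.16 with SRPBM totals, -0.54 with exonic circRNAs only), Ubr3 (0.071 with the replicate block, 0.012 with exonic circRNAs only), and with 1 library left out Usp25 (-5.89 to 0.080), Ubr3 (-1.02 to 1.04), Ube2q2 (-0.17 to 0.34), Trim33 (-0.79 to 1.44) and Rnf14 (-0.80 to 0.60). SRPBM totals moved the median log2 change of all hosts tested from 0.11 to -0.30. The causes were not tested. Depth limits most members, since 59 of 81 had too few reads to be tested.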

Other observations

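Herc1 and Usp3 were neighbours on chromosome 8, with 27263 bases between their listed circRNAs, no other listed circRNA in the gap and opposite strands. Junction reads of Herc1 numbered 6 and 13 in the crush replicates and 28 and 21 in the sham replicates, and those of Usp3 14 and 16 and then 0 and 4. Neither passed the host gene test, and the difference between them was not tested.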
